A study of Homo sapiens with 12 samples.

Results

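The farnesoid X receptor (FXR, gene NR1H4) and 9 genes of bile acid signalling, synthesis and transport were followed in human liver spheroid co-cultures exposed to total parenteral nutrition (TPN). The 10 genes are given by name, with no threshold on their values, in a set drawn up with earlier results of these data known: NR1H4, NR0B2, FGF19, FGFR4, CYP7A1, CYP8B1, CYP27A1, SLC10A1, SLC51A and SLC51B. They are 10 of the 16705 genes measured, and 7 of them passed the filter on low expression. Each spheroid held C3A cells, a clone of the HepG2 hepatoma line, and a smaller number of LX-2 cells, an immortalised line derived from activated hepatic stellate cells. The 12 libraries formed 4 groups of 3, which were compared: untreated for 24 h, 1% TPN for 24 h, untreated for 144 h and 1% TPN for 144 h. TPN was a clinical mixture of amino acids with electrolytes, glucose and a lipid emulsion, to which trace elements and vitamins were added. All groups grew in the same serum-containing medium with no bile acid added named in the labels, and exposure began after the spheroids had formed. RNA of many spheroids was pooled for each library. The study describes its RNA sequencing data as coming from independent experiments, while the labels give replicate numbers without saying how the cultures were separated. The p values measure the spread between these libraries. C3A is a single clone of tumour origin and LX-2 an immortalised line, and no ileal cells were included.

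Bile acids are made from cholesterol in hepatocytes, and FXR is the nuclear receptor that senses them. FXR pairs with the retinoid X receptor and binds inverted repeats of the AGGTCA half-site. In the liver it induces NR0B2, which encodes the small heterodimer partner (SHP), a corepressor that lowers transcription of CYP7A1 and CYP8B1. In the ileum FXR induces FGF19, a hormone that reaches the liver, binds FGFR4 with its co-receptor KLB and also represses CYP7A1. CYP7A1 is the rate-limiting enzyme of the classic pathway of bile acid synthesis, CYP8B1 makes the branch to cholic acid, and CYP27A1 hydroxylates the sterol side chain and opens the alternative pathway. SLC10A1 (NTCP) takes up bile acids from blood, and SLC51A and SLC51B encode the alpha and beta chains of the organic solute transporter (OST), which exports them across the basolateral membrane and works only as a heteromer. TPN-associated liver disease often involves cholestasis, and the comparisons below show how the RNA of these genes changed with 1% TPN after short and long exposure.

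Expression was given as FPKM, the fragments of a gene scaled for transcript length and for the size of the library, a level that can be compared between genes. Depth was estimated from the steps between low FPKM values of 97 short genes at 1.78e+07 fragments per library, and the deepest library had 1.03 times the fragments of the shallowest. Only values near whole steps were used, so a large difference in depth between libraries could not have shown. Pearson correlations of libraries within a group were 0.993 to 0.996 across genes. The 10 hepatocyte markers examined, among them ALB, APOA1 and TTR, were present in every library, with none below 1 FPKM. Of 16 stellate or mesenchymal markers, LUM, DCN and DES remained below 1 FPKM in every library. Of 6 ileal enterocyte markers in the table, FABP6, FABP2, CDX2 and CDX1 remained below 1 FPKM in every library, whereas VIL1 had 56.3 to 96.3 FPKM and APOA4 17.5 to 46.1 FPKM over the libraries.

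The upstream sequences of the OST genes and of NR1H4 are shown because the OST chains had different time courses and NR1H4 had the lowest log2 fold change with TPN at 144 h among the 7 genes tested. The sequences are the 250 bases before the transcription start in the RefSeq annotation of GRCh38.p14, written 5′ to 3′ on the plus strand, which is the coding strand of all 3 genes. They span chr15:65045137-65045386 for SLC51B, chr3:196216284-196216533 for SLC51A and chr12:100503110-100503359 for NR1H4. The NR1H4 window precedes a start that lies inside the longer gene span of the deposited table. Capitals mark matches to the letters AGGTCANTGACCT, an inverted repeat with 1 base between the half-sites, with at most 2 mismatches, or to the half-site AGGTCA on either strand.
SLC51B: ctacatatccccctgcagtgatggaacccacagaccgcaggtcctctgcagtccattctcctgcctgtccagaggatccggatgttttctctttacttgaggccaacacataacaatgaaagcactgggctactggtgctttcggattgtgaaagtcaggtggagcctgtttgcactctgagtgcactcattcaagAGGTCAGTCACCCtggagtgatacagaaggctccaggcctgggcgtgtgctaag
SLC51A: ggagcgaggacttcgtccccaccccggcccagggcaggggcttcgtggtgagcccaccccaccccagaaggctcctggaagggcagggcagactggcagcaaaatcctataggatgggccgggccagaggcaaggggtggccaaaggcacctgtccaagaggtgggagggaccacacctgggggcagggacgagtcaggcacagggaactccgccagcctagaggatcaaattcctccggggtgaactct
NR1H4: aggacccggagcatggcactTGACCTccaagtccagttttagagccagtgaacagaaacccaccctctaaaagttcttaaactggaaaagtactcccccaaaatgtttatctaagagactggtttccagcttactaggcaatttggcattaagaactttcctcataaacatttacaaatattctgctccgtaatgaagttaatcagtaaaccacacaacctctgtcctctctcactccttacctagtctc

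In the SLC51B window the match AGGTCAGTCACCC, with 2 mismatches, lay 54 to 42 bases before the start. The SLC51A window held no match to the inverted repeat at this tolerance and no half-site. In the NR1H4 window the half-site read TGACCT on the plus strand, 230 to 225 bases before the start. A match to the inverted repeat with at most 2 mismatches was found in 0.945% of 35116 windows of the same length, and the half-site, which overlaps that match in SLC51B, in 12.1%. Windows for FGFR4, CYP27A1 and SLC10A1 were searched too, and of these the SLC10A1 window alone held a match to the repeat, AGGTCAGGGAGCT with 2 mismatches. A match is a description of letters and not of binding. No windows for NR0B2, FGF19, CYP7A1 and CYP8B1 were used here.

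The levels of the 10 genes spanned a wide range. By mean FPKM over the 12 libraries the order was FGFR4 with 169.9, CYP27A1 with 104.6, NR0B2 with 81.8, SLC51A with 17.1, NR1H4 with 12.6, SLC51B with 5.01 and CYP8B1 with 0.858. Within each group, neighbours in the order of that group did not overlap in their libraries down to CYP8B1, except NR0B2 and CYP27A1 in untreated spheroids at 144 h. SLC51A stood below NR1H4 at 24 h and above it at 144 h, in untreated and in exposed spheroids. FGF19, CYP7A1 and SLC10A1 came last.

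The hormone and the 2 hepatocyte genes that define bile acid synthesis and uptake were at the limit of detection. FGF19 was listed between 0 and 0.14 FPKM and above 0 in 11 of 12 libraries, and its values were multiples of about 0.035 FPKM that together made 22 steps of about 1 fragment. At 144 h FGF19 was 0.03 FPKM in each untreated library and 0.1, 0.1 and 0.07 FPKM in the exposed libraries. These groups did not overlap, but they differed by 1 or 2 fragments a library, and the exact two-sided permutation test of 3 against 3 libraries gave p = 0.1, the smallest it can give. At 24 h FGF19 values of 0.14, 0.03 and 0.07 FPKM without TPN overlapped those of 0, 0.1 and 0.03 FPKM with TPN. CYP7A1 was above 0 in 5 of 12 libraries and did not exceed 0.04 FPKM. SLC10A1 was listed at 0 in every library except 1 of the 3 exposed for 24 h, which had 0.03 FPKM. A difference with TPN in CYP7A1 or SLC10A1 was not detectable at this depth.

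**Figure D1:**
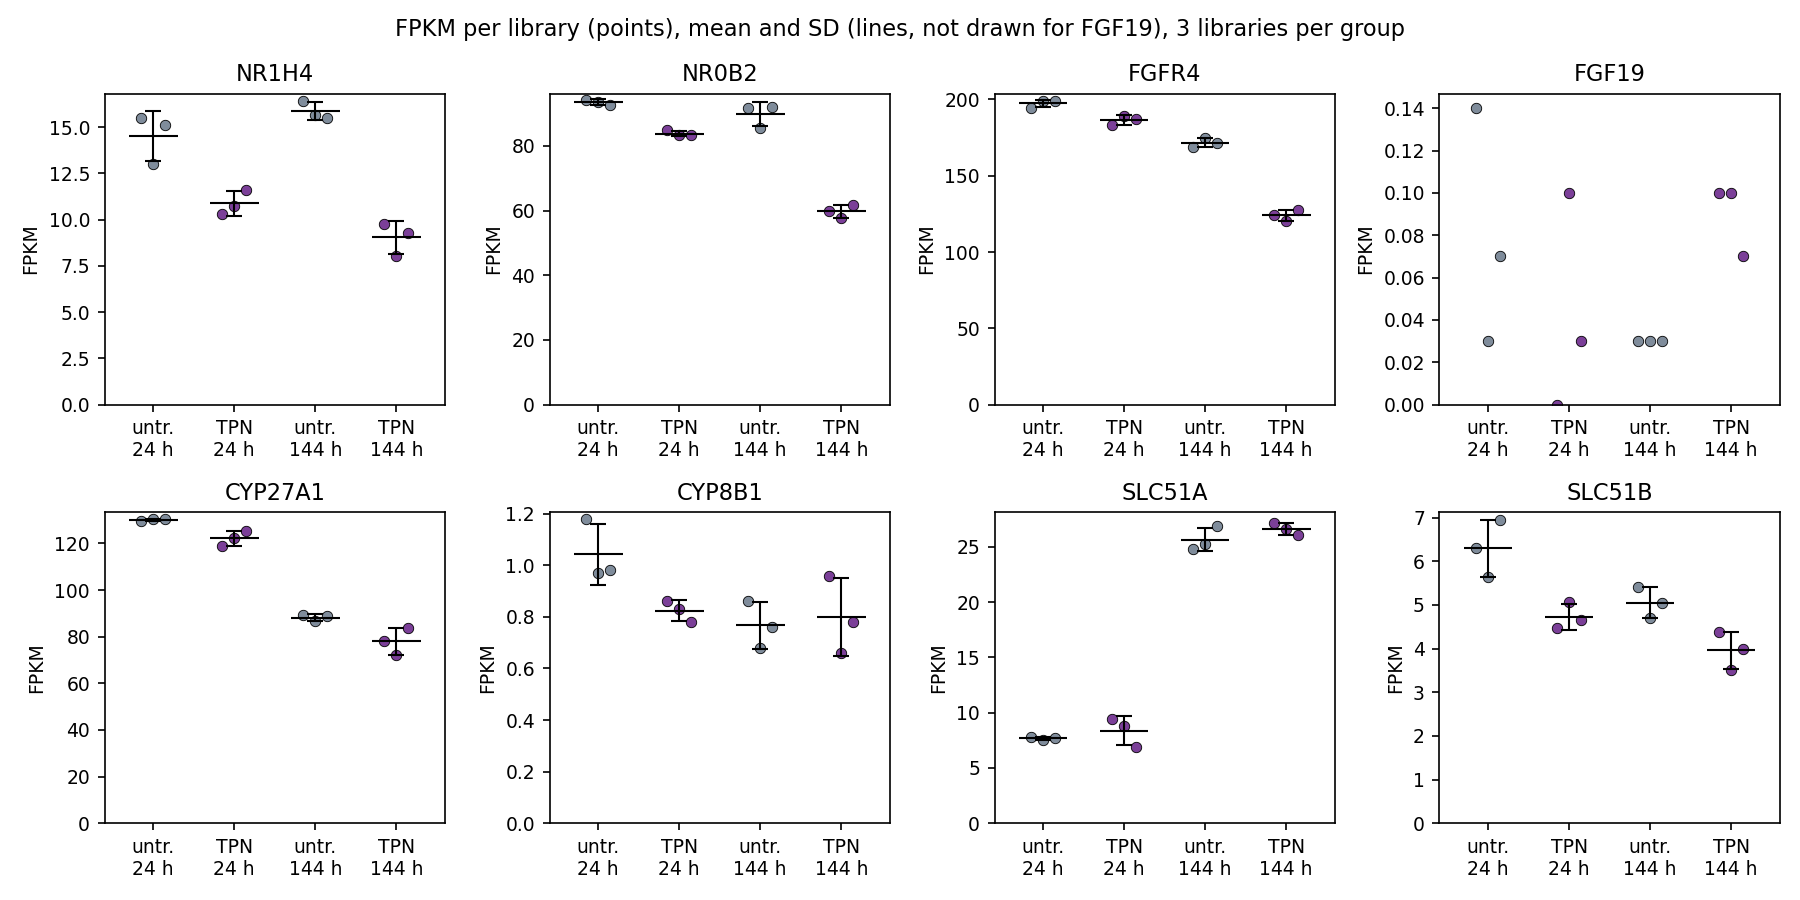
FPKM (vertical axis, linear from 0) of 8 of the 10 genes in each of the 12 libraries, grouped by treatment (untr., untreated) and exposure time. Points are libraries and lines are the mean and SD of 3 libraries, not drawn for FGF19. NR1H4, NR0B2 and FGFR4 lie lowest in the exposed libraries of 144 h, and SLC51A is high in both groups of 144 h.

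After 144 h of exposure, NR1H4, NR0B2, FGFR4, CYP27A1 and SLC51B were lower in exposed than in untreated spheroids, and CYP8B1 and SLC51A showed no change that passed the test. The test was limma on log2(FPKM + 0.1), with p values adjusted over 11713 genes, and a gene passed with an adjusted p below 0.05. A DEG (differentially expressed gene) also had an absolute log2 fold change above 0.58. Of the 7 genes tested 5 fell and 0 rose, beside 28.3% of all genes tested that fell and 24.2% that rose. The DEGs were NR1H4 and NR0B2, beside 3.73% of all genes that were lower DEGs. All exposed libraries were below all untreated ones in 5 of the 7 genes, beside 30.2% of all genes tested. These are the same 5 genes that fell, in the same libraries, so the separation adds no independent support. The median log2 fold change of the 7 genes was −0.34, beside −0.018 for all genes tested.

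NR1H4 (gene ID 9971, GRCh38.p13 chromosome 12, 100473866 to 100564414, plus strand) was 16.4, 15.67 and 15.48 FPKM in untreated libraries at 144 h. In exposed libraries it was 9.79, 8.04 and 9.28 FPKM. The groups did not overlap, with means of 15.9 ± 0.486 and 9.04 ± 0.900 (SD, n = 3 each). NR1H4 fell by 42.9% on the log2(FPKM + 0.1) scale, with a log2 fold change of −0.81 ± 0.077 (SE, limma adjusted p = 1.35e-06). Only 1.42% of the genes tested had a log2 fold change at or below this one.

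NR0B2, whose product SHP is induced by FXR (gene ID 8431, chromosome 1, 26911489 to 26914110, minus strand), was 91.84, 85.57 and 92.1 FPKM without TPN and 59.94, 57.85 and 61.83 FPKM with TPN at 144 h. All exposed libraries were below all untreated ones. The log2 fold change was −0.58 ± 0.033 (SE, limma adjusted p = 9.90e-09), a fall by 33.3%. This gene lay close to the fold-change threshold, with a 95% interval of −0.66 to −0.51, and it did not count as a DEG with a pseudocount of 1, after quantile normalization, or without untreated replicate 1, untreated replicate 3 or exposed replicate 2 of 144 h. Its adjusted p remained below 0.05 in these settings.

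FGFR4, the receptor for FGF19 (gene ID 2264, chromosome 5, 177086915 to 177098144, plus strand), had the highest level of the 10 genes. At 144 h it was 168.85, 174.74 and 171.18 FPKM without TPN and 124.08, 120.42 and 127.5 FPKM with TPN. The groups were far apart relative to their SDs of 2.97 and 3.54 FPKM. FGFR4 fell by 27.7%, with a log2 fold change of −0.47 ± 0.027 (SE, limma adjusted p = 1.18e-08), which is short of the DEG threshold. Its co-receptor KLB was 7.14 ± 0.525 FPKM without and 7.04 ± 0.730 FPKM with TPN (SD, n = 3 each) and did not pass the test (log2 fold change −0.023, limma adjusted p = 0.801).

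Among the enzymes, CYP27A1 (gene ID 1593, chromosome 2, 218777018 to 218815293, plus strand) was 89.19, 86.65 and 88.73 FPKM in untreated libraries at 144 h. With TPN it was 78.14, 72.05 and 83.83 FPKM, below every untreated library but with the larger SD of 5.89 FPKM. CYP27A1 fell by 11.7% (log2 fold change −0.18 ± 0.043 SE, limma adjusted p = 0.00319). CYP8B1 was 0.86, 0.68 and 0.76 FPKM without and 0.96, 0.66 and 0.78 FPKM with TPN, and these values overlapped. Its log2 fold change of 0.046 had a 95% interval of −0.28 to 0.37 (limma adjusted p = 0.813). It rested on a mean of about 46.3 fragments per library without and 48.3 with TPN.

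The chains of OST differed from each other. SLC51B (gene ID 123264, chromosome 15, 65045387 to 65053397, plus strand) was 5.41, 4.69 and 5.05 FPKM without and 4.37, 3.52 and 4 FPKM with TPN at 144 h. It fell by 21.3% (log2 fold change −0.34 ± 0.093 SE, limma adjusted p = 0.00666), and the groups did not overlap. SLC51A (gene ID 200931, chromosome 3, 196216534 to 196233427, plus strand) was 24.83, 25.26 and 26.85 FPKM without and 27.14, 26.62 and 26.09 FPKM with TPN. Untreated and exposed values of SLC51A overlapped, and the log2 fold change of 0.054 had a 95% interval of −0.12 to 0.23 (limma adjusted p = 0.608).

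**Figure D2:**
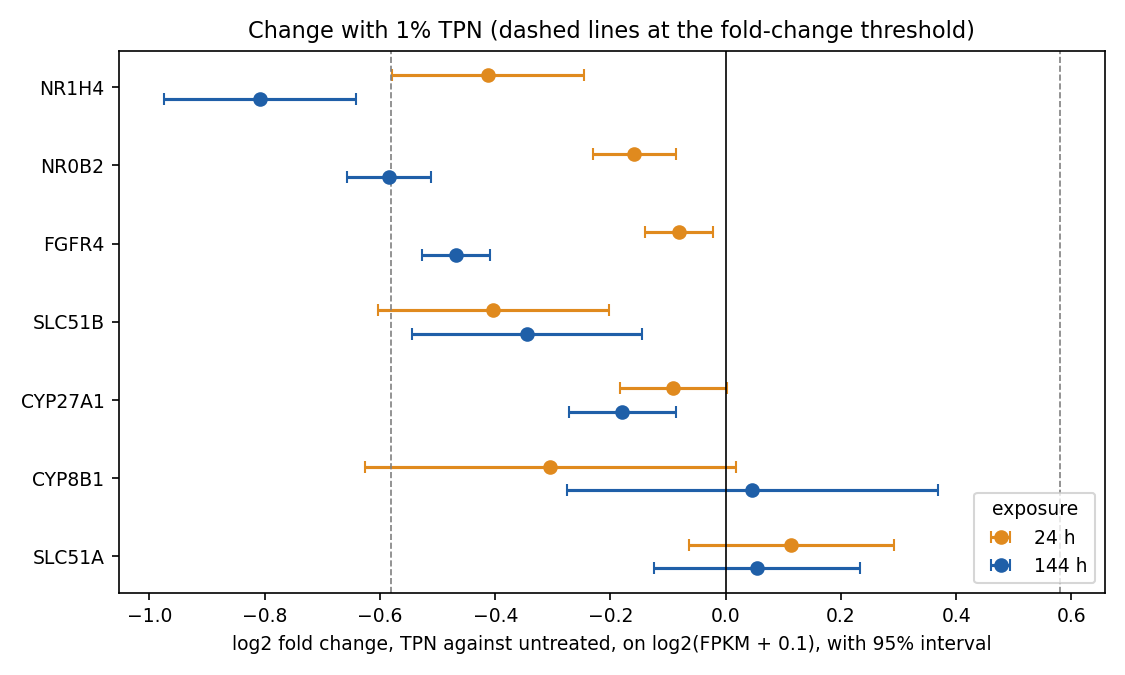
Log2 fold change of TPN against untreated on log2(FPKM + 0.1) (horizontal axis) for the 7 genes tested, after 24 h and 144 h. Points are limma estimates, bars are 95% intervals and dashed lines mark the DEG threshold of 0.58. NR1H4, NR0B2 and FGFR4 lie further to the left at 144 h than at 24 h, whereas SLC51B has nearly the same value of −0.40 and −0.34.

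Hepatocyte markers moved with these falls at 144 h. The summed level of the 10 markers was 18849 to 20370 FPKM in untreated and 14024 to 15111 FPKM in exposed libraries, and 8 of the 10 fell, with a median log2 fold change of −0.31 and a range of −0.69 (AFP) to 0.057 (FGB). None of the 10 markers had a lower log2 fold change than NR1H4, 3 had a lower one than NR0B2, 4 than FGFR4, 5 than SLC51B and 7 than CYP27A1. HNF4A, a factor that sustains hepatocyte genes and is 1 of the 10 markers, went from 85.7 ± 1.61 to 67.2 ± 1.53 FPKM (log2 fold change −0.35, limma adjusted p = 2.36e-07). Of 13 stellate or mesenchymal markers tested, 7 fell and 2 rose, while the sum over the 16 markers in the table was 261 to 275 FPKM without and 344 to 369 FPKM with TPN. The 7 cholangiocyte markers summed to 707 to 726 FPKM without and 1491 to 1605 FPKM with TPN, with KRT7 below 1 FPKM in every library. Of the 6 cholangiocyte markers tested, however, 1 rose and 2 fell, with a median log2 fold change of −0.043. The higher sum was thus not shared by most of these markers. The part of these shifts in the values of the 10 genes was not tested, and in pooled spheroids fewer cells of a type and less RNA per cell cannot be told apart.

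After 24 h of exposure NR1H4, NR0B2 and SLC51B were lower in exposed than in untreated spheroids and passed the test. Of the 7 genes tested 3 fell and 0 rose, beside 5.46% of all genes that fell and 5.04% that rose, and 0 of the 7 were DEGs, beside 0.914% of all genes. By unadjusted p, 4 of the 7 were lower at p below 0.05 (NR1H4, NR0B2, FGFR4 and SLC51B), beside 12.7% of all genes. All 3 exposed libraries were below all 3 untreated ones in 6 of the 7 genes, SLC51A being the exception, beside 15.9% of all genes tested.

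NR1H4 was 15.49, 13 and 15.1 FPKM in untreated and 10.31, 10.72 and 11.59 FPKM in exposed libraries at 24 h. It fell by 24.9% (log2 fold change −0.41 ± 0.077 SE, limma adjusted p = 0.00363). NR0B2 was 94.36, 93.7 and 92.77 FPKM without and 84.88, 83.25 and 83.46 FPKM with TPN, groups that did not overlap and had SDs below 1 FPKM. NR0B2 fell by 10.4% (log2 fold change −0.16 ± 0.033 SE, limma adjusted p = 0.00779). Of the 10 hepatocyte markers 6 fell at 24 h, with a median log2 fold change of −0.16. FGB alone among them, at −0.58, was below NR1H4, whereas 5 were below NR0B2. The summed hepatocyte markers were 18143 to 18521 FPKM without and 16477 to 16634 FPKM with TPN. Cholangiocyte markers summed to 997 to 1051 FPKM without and 1218 to 1239 FPKM with TPN at 24 h, and stellate or mesenchymal markers to 257 to 280 and 256 to 277 FPKM. Of the 6 cholangiocyte markers tested 1 rose and 2 fell at 24 h, and of the 13 stellate or mesenchymal markers tested 1 rose and 1 fell. The part of these levels in the values of the 10 genes at 24 h was not tested.

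SLC51B was 6.31, 5.63 and 6.95 FPKM in untreated and 4.47, 5.06 and 4.65 FPKM in exposed libraries at 24 h. It fell by 24.4% (log2 fold change −0.40 ± 0.093 SE, limma adjusted p = 0.0129). With fewer libraries the value kept its direction but did not always pass, with −0.33 (limma adjusted p = 0.0634) without untreated replicate 3 and −0.36 (limma adjusted p = 0.0552) without exposed replicate 1. SLC51A was 7.77, 7.55 and 7.68 FPKM without and 9.45, 8.75 and 6.92 FPKM with TPN, so that exposed replicate 3 lay below the untreated libraries and the other exposed libraries above. Its log2 fold change was 0.11 (limma adjusted p = 0.451) with all libraries. Over the fits with 1 library left out it ran from 0.021 (limma adjusted p = 0.918) without exposed replicate 1 to 0.24 (limma adjusted p = 0.00884) without exposed replicate 3.

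FGFR4 was 194.58, 198.78 and 198.95 FPKM without and 183.29, 189.29 and 187.21 FPKM with TPN at 24 h, with a log2 fold change of −0.081 (limma adjusted p = 0.0775). CYP27A1 was 129.48, 130.35 and 130.37 FPKM without and 118.8, 122.35 and 125.25 FPKM with TPN (log2 fold change −0.091, limma adjusted p = 0.219). CYP8B1 was 1.18, 0.97 and 0.98 FPKM without and 0.86, 0.83 and 0.78 FPKM with TPN (log2 fold change −0.30, limma adjusted p = 0.237). In these genes the libraries separated by treatment, but the difference did not pass the test over all genes.

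Whether the change with TPN differed between exposure times was tested with an interaction term, in which the 24 h log2 fold change is subtracted from the 144 h one. The fall was larger at 144 h for NR0B2 (−0.43, limma adjusted p = 2.66e-05), FGFR4 (−0.39, limma adjusted p = 1.17e-05) and NR1H4 (−0.40, limma adjusted p = 0.0150). Of the 7 genes tested 3 passed, all with the lower value at 144 h, beside 16.3% of all genes, and 0 exceeded an absolute difference of 0.58, beside 5.87% of all genes. No difference passed for SLC51B (0.058, 95% interval −0.22 to 0.34), CYP27A1 (−0.088, −0.22 to 0.043), SLC51A (−0.060, −0.31 to 0.19) or CYP8B1 (0.35, −0.10 to 0.81). The values for CYP27A1 and SLC51A moved both ways when a single library was left out. For CYP27A1 the difference was −0.14 (limma adjusted p = 0.0474) without exposed replicate 3 of 144 h and −0.033 (limma adjusted p = 0.648) without exposed replicate 2 of 144 h. For SLC51A it was −0.19 (limma adjusted p = 0.0493) without exposed replicate 3 of 24 h and 0.033 (limma adjusted p = 0.844) without exposed replicate 1 of 24 h. The CYP8B1 difference was 0.23 (limma adjusted p = 0.456) without exposed replicate 1 of 144 h. After quantile normalization it was 0.16 (limma adjusted p = 0.606).

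SLC51A had its largest log2 fold changes with time in culture and not with TPN. The time comparisons share their libraries with the comparisons of TPN. Over all genes tested the median log2 fold change from 24 h to 144 h was −0.18 in untreated and in exposed spheroids, and −0.0074 and −0.011 after median ratio scaling, so each change is to be read against that shift. In untreated spheroids 1 of the 7 genes rose and 4 fell, beside 20.1% and 52.4% of all genes. In exposed spheroids 1 rose and 5 fell, beside 24.2% and 52%.

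SLC51A rose from 7.67 ± 0.111 to 25.6 ± 1.06 FPKM in untreated spheroids (SD, n = 3 each), a log2 fold change of 1.73 ± 0.083 (SE, limma adjusted p = 5.61e-10). It rose from 8.37 ± 1.31 to 26.6 ± 0.525 FPKM in exposed spheroids, a log2 fold change of 1.67 ± 0.083 (SE, limma adjusted p = 4.17e-10). SLC51A was the only DEG of the 7 genes with time in untreated spheroids, where 6.8% of all genes were higher DEGs, and 98.9% of the genes tested had a log2 fold change at or below its own. After median ratio scaling its values were 1.90 and 1.84. In exposed spheroids SLC51A was a higher DEG, beside 9.51% of all genes, and FGFR4 and CYP27A1 were lower DEGs, beside 17.2%, but FGFR4 and CYP27A1 lost that call after median ratio scaling.

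CYP27A1 fell with time from 130 ± 0.508 to 88.2 ± 1.35 FPKM in untreated spheroids (log2 fold change −0.56, limma adjusted p = 5.89e-08). In exposed spheroids it fell from 122 ± 3.23 to 78.0 ± 5.89 FPKM (log2 fold change −0.65, limma adjusted p = 8.00e-09). Median ratio scaling gave −0.38 and −0.47, so this fall exceeded the shift of all genes. FGFR4 fell from 197 ± 2.48 to 172 ± 2.97 FPKM in untreated spheroids (log2 fold change −0.20, limma adjusted p = 1.43e-05), which was close to the shift of all genes and did not pass after median ratio scaling (−0.024, limma adjusted p = 0.450). In exposed spheroids FGFR4 fell from 187 ± 3.05 to 124 ± 3.54 FPKM (log2 fold change −0.59, limma adjusted p = 2.24e-10, and −0.41 after median ratio scaling).

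NR0B2 was 93.6 ± 0.799 and 89.8 ± 3.70 FPKM in untreated spheroids at 24 h and 144 h and did not pass the test (−0.060 on the log2 scale, limma adjusted p = 0.122). It passed as lower with libraries scaled to the same FPKM sum (−0.076, limma adjusted p = 0.0342). The sign turned after median ratio scaling, and it passed as higher (0.12, limma adjusted p = 0.00718). Without untreated replicate 2 of 144 h the value was −0.025 (limma adjusted p = 0.492). In exposed spheroids NR0B2 fell from 83.9 ± 0.887 to 59.9 ± 1.99 FPKM (log2 fold change −0.49, limma adjusted p = 1.18e-08, and −0.31 after median ratio scaling). NR1H4 was 14.5 ± 1.34 and 15.9 ± 0.486 FPKM in untreated spheroids (log2 fold change 0.13, limma adjusted p = 0.151), and it passed as higher after median ratio scaling (0.31, limma adjusted p = 0.00291). Without untreated replicate 2 of 24 h its value was 0.051 (limma adjusted p = 0.565). In exposed spheroids NR1H4 fell from 10.9 ± 0.654 to 9.04 ± 0.900 FPKM (log2 fold change −0.27, limma adjusted p = 0.00632), a call lost after median ratio scaling (−0.092, limma adjusted p = 0.286).

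SLC51B fell with time from 6.30 ± 0.660 to 5.05 ± 0.360 FPKM in untreated spheroids (log2 fold change −0.31, limma adjusted p = 0.00836) and from 4.73 ± 0.302 to 3.96 ± 0.426 FPKM in exposed spheroids (log2 fold change −0.25, limma adjusted p = 0.0242). Both calls were lost after median ratio scaling, with −0.13 and −0.079. The call in exposed spheroids was also lost without exposed replicate 2 of 24 h (−0.20, limma adjusted p = 0.0943) or of 144 h (−0.17, limma adjusted p = 0.120). CYP8B1 fell in untreated spheroids from 1.04 ± 0.118 to 0.767 ± 0.0902 FPKM (log2 fold change −0.40, limma adjusted p = 0.0270), a call lost after median ratio scaling (−0.24, limma adjusted p = 0.170). With 1 untreated library fewer the value of CYP8B1 was −0.32 without replicate 1 of 24 h (limma adjusted p = 0.109), −0.33 without replicate 2 of 144 h (0.0969) and −0.40 without replicate 3 of 144 h (0.0578). In exposed spheroids CYP8B1 was 0.823 ± 0.0404 and 0.80 ± 0.151 FPKM (log2 fold change −0.049, limma adjusted p = 0.775). Of 13 stellate or mesenchymal markers tested, 11 fell and 1 rose with time in untreated spheroids (median −1.99 on the log2 scale). In exposed spheroids 10 fell and 2 rose. Without TPN the sum over the 16 markers overlapped, with 257 to 280 FPKM at 24 h and 261 to 275 FPKM at 144 h. With TPN it was 256 to 277 and 344 to 369 FPKM. Cholangiocyte sums were 997 to 1051 and 707 to 726 FPKM without TPN, and 1218 to 1239 and 1491 to 1605 FPKM with it. Of the 6 cholangiocyte markers tested, 3 rose and 3 fell in untreated spheroids, and 4 rose and 2 fell in exposed ones. Of 10 hepatocyte markers, 4 rose and 3 fell in untreated spheroids, and 4 rose and 5 fell in exposed ones. The part of these changes in the time courses above was not tested.

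The ratio of the OST chains was described after their different time courses had been seen. Within single libraries the ratio of SLC51A to SLC51B in FPKM was 1.23, 1.34 and 1.11 in untreated spheroids at 24 h and 2.11, 1.73 and 1.49 in exposed ones. At 144 h it was 4.59, 5.39 and 5.32 without and 6.21, 7.56 and 6.52 with TPN. No 2 groups overlapped in the comparisons of TPN or of time, and each exact two-sided permutation test of 3 against 3 libraries gave p = 0.1, the smallest possible, so that no difference in this ratio could pass 0.05. The ratio of NR0B2 to NR1H4 was 5.67 ± 0.252 without and 6.66 ± 0.536 with TPN at 144 h (SD, n = 3 each, no overlap, exact permutation p = 0.1). At 24 h the ratio was 6.48 ± 0.630 without and 7.73 ± 0.517 with TPN, and these libraries overlapped.

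**Figure D3:**
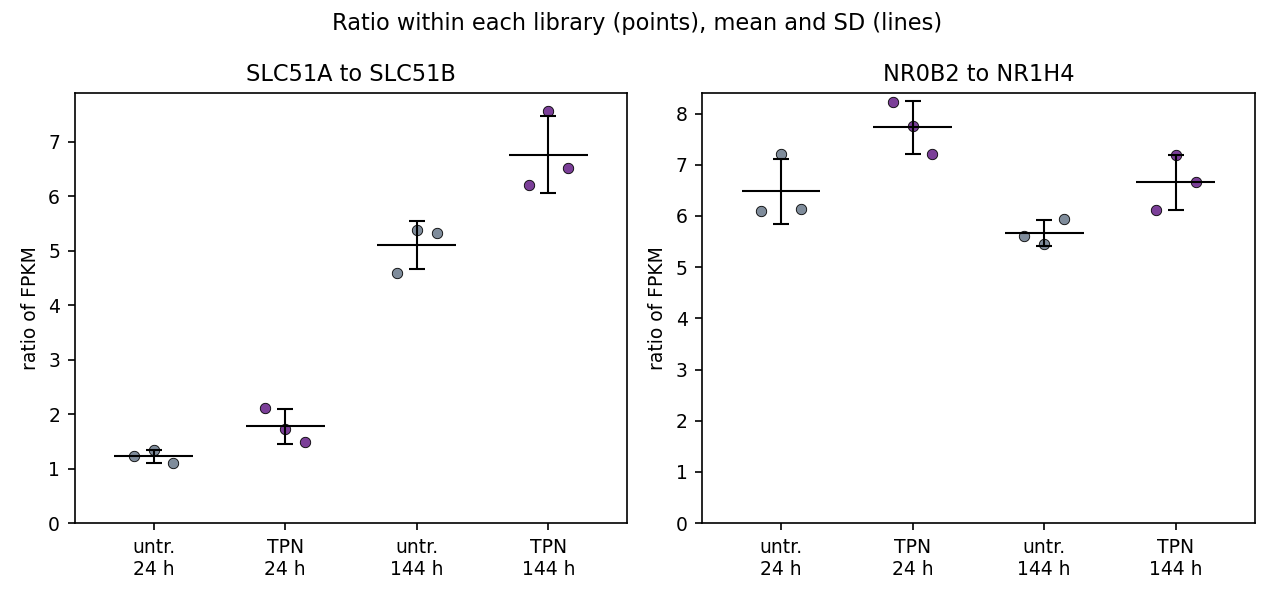
Ratio of FPKM within each library (vertical axis, linear from 0) for SLC51A to SLC51B and for NR0B2 to NR1H4, by treatment (untr., untreated) and exposure time. Points are libraries and lines are mean and SD of 3. The mean SLC51A to SLC51B ratio is lowest, at 1.23, without TPN at 24 h and highest, at 6.77, with TPN at 144 h.

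The other genes of the pathway were counted by list and read beside all genes tested, of which at 144 h 24.2% rose and 28.3% fell, and after 24 h 5.04% were higher and 5.46% lower. DEGs made up 9.48% of all genes tested at 144 h. Of 13 tested partners and regulators of FXR and of the FGF19 receptor, 5 fell and 3 rose at 144 h, near the shares of all genes. RXRA, the usual partner of FXR, was 16.8 ± 0.237 FPKM without and 17.1 ± 0.104 FPKM with TPN (log2 fold change 0.031, limma adjusted p = 0.606). NR5A2, which activates CYP7A1 and is bound by SHP, was 1.30 ± 0.07 and 0.993 ± 0.160 FPKM and fell (log2 fold change −0.37, limma adjusted p = 0.0455). VDR, a nuclear receptor that also binds lithocholic acid, was the only DEG of this list and rose from 0.31 ± 0.0656 to 0.57 ± 0.171 FPKM (log2 fold change 0.69, limma adjusted p = 0.0161). After 24 h of exposure 2 of these 13 genes rose and 1 fell.

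Of 12 other enzymes of bile acid synthesis and conjugation tested, 3 rose and 1 fell at 144 h, beside 24.2% and 28.3% of all genes, and 1 rose at 24 h, beside 5.04%. The DEG among them was EPHX1, microsomal epoxide hydrolase, which went from 45.1 ± 1.4 to 77.2 ± 5.11 FPKM (log2 fold change 0.77, limma adjusted p = 4.99e-08). BAAT, which joins bile acids to glycine or taurine, was 0.16 to 0.71 FPKM over the 12 libraries and was not tested. In the KEGG list of primary bile acid biosynthesis, without the genes above that belong to it, 2 of 8 genes tested rose and 0 fell at 144 h. These counts stand beside the same 24.2% and 28.3%. The median log2 fold change of the 8 genes was 0.058, and 0 passed at 24 h. At 144 h 0 of the 8 were DEGs, so this list held no change that met the threshold EPHX1 met. A role of EPHX1 in bile acid synthesis was not tested.

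Of 12 other transporters tested, 8 rose and 3 fell at 144 h, beside 24.2% and 28.3% of all genes, and 2 of the 12 were DEGs, beside 9.48% of all genes. ABCC2, which exports conjugates into bile, was 122.71, 132.41 and 118.67 FPKM without and 245.29, 247.84 and 244.03 FPKM with TPN (log2 fold change 0.98 ± 0.036 SE, limma adjusted p = 1.42e-10). ABCC3, which exports conjugates across the basolateral membrane as OST does for bile acids, was 11.8, 11.56 and 11.78 FPKM without and 33.08, 33.29 and 32.5 FPKM with TPN (log2 fold change 1.48 ± 0.036 SE, limma adjusted p = 2.09e-12). Both rose while SLC51B fell and SLC51A did not pass the test. At 24 h 3 of the 12 rose and 2 fell, beside 5.04% and 5.46% of all genes, and ABCC2 was already higher, with 134 ± 2.17 FPKM without and 224 ± 5.77 FPKM with TPN (log2 fold change 0.74, limma adjusted p = 1.29e-08). ABCB11, the bile salt export pump and an FXR target, was 0 to 0.11 FPKM in all libraries and was not tested.

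Of 18 other known FXR targets tested, 6 rose and 6 fell at 144 h, beside 24.2% and 28.3% of all genes, with a median log2 fold change of 0.0061. After 24 h 1 rose and 7 fell, beside 5.04% and 5.46% of all genes. KNG1, encoding kininogen, fell at both times. At 24 h it had 1.00 ± 0.235 FPKM without and 0.407 ± 0.0802 FPKM with TPN, so that its log2 fold change was −1.11 (limma adjusted p = 0.00231), and at 144 h it had 0.85 ± 0.0721 and 0.487 ± 0.0907 FPKM (log2 fold change −0.70, limma adjusted p = 0.00792). UGT2B4, which glucuronidates bile acids, had 0.67 ± 0.0721 FPKM without and 1.23 ± 0.104 FPKM with TPN at 144 h. At 24 h it had 0.0767 ± 0.0208 and 0.107 ± 0.0862 FPKM. Its mean reached the filter of 0.5 FPKM only with the exposed libraries of 144 h, so its test is not read as a result. UGT2B4 is among the 6 genes counted as risen. TFF3, a secreted trefoil peptide, rose at 144 h from 0.79 ± 0.485 to 1.65 ± 0.0924 FPKM (log2 fold change 1.16, limma adjusted p = 0.0186). The targets FGB and APOA1 also belong to the hepatocyte markers.

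In the KEGG list of bile secretion, again without the genes above that belong to it, 20 of 38 genes tested rose and 8 fell at 144 h, beside 24.2% and 28.3% of all genes, with a median log2 fold change of 0.15. After 24 h 6 rose and 5 fell, beside 5.04% and 5.46%. UGT1A1, the bilirubin glucuronosyltransferase, had 0.21 ± 0.0721 FPKM without and 3.15 ± 0.468 FPKM with TPN at 144 h. At 24 h it had 0.293 ± 0.0929 and 0.42 ± 0.0458 FPKM. UGT1A1 passed the filter of 0.5 FPKM only through the exposed libraries of 144 h, so its test is not read as a result. It is among the 20 genes counted as risen. UGT1A6 had a log2 fold change of 1.62 at 144 h (limma adjusted p = 0.00162). UGT1A1 and UGT1A6 share exons with other UGT1A genes, so how their fragments were divided is uncertain. ABCC2 and ABCC3 belong to this list too.

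**Figure D4:**
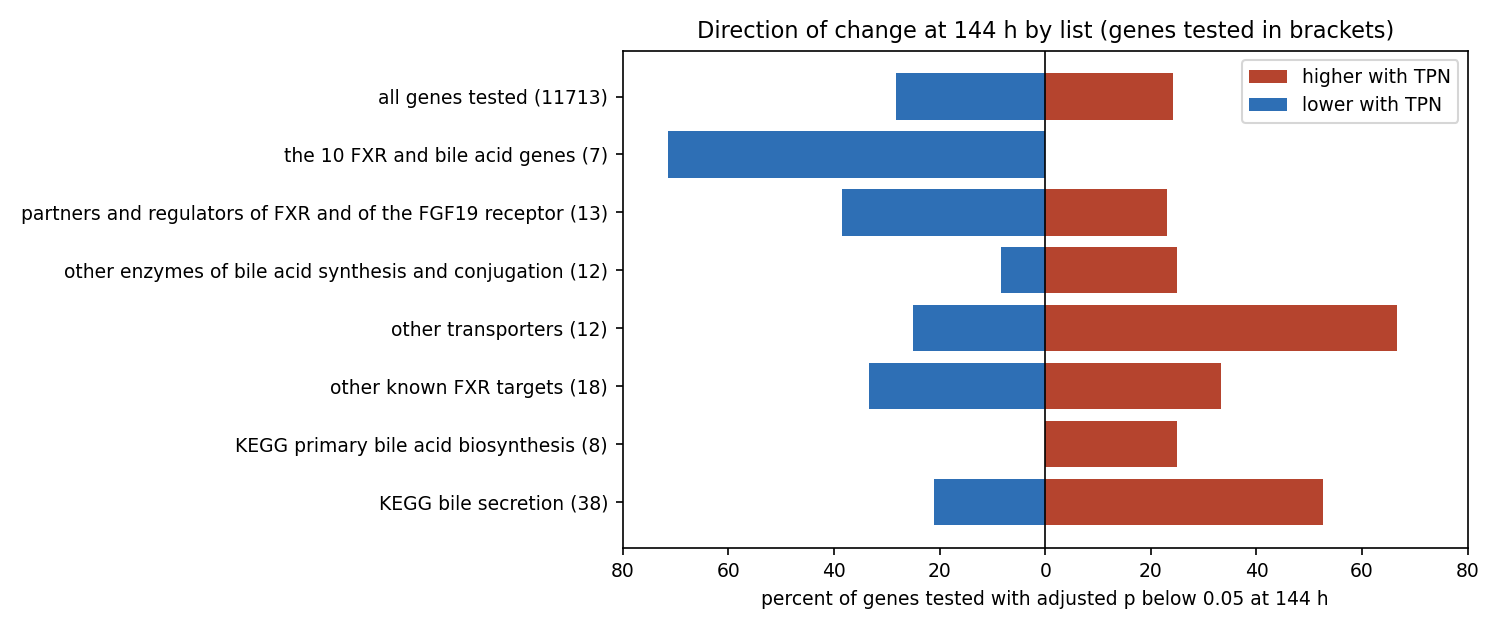
Percent of the genes tested (horizontal axis, counted outward from 0 to both sides) that were higher or lower with TPN at 144 h at a limma adjusted p below 0.05, for all genes tested, the 10 FXR and bile acid genes and 6 lists of related genes, with the number tested in brackets. Among the 10 genes, 5 of 7 tested were lower and 0 higher, whereas 8 of 12 other transporters were higher.

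Likeness of pattern was described by Pearson's r between the log2(FPKM + 0.1) values of 12 libraries, which share the 4 groups. Of the pairs among the 7 genes tested, r was highest for NR0B2 and FGFR4 (0.942), followed by FGFR4 and CYP27A1 (0.879) and by NR1H4 and NR0B2 (0.849), and it was 0.675 for NR1H4 and FGFR4. It was lowest for CYP27A1 and SLC51A (−0.969), and SLC51A and SLC51B had r = −0.579. Among all 11712 other genes tested, NR1H4 was most like SEPHS2 (r = 0.970) and OXR1 (0.964), and NR0B2 most like SLC5A9 (0.995) and NCOA4 (0.990). FGFR4 was most like APH1A (0.997) and ANXA4 (0.996), and CYP27A1 most like SLC38A10 (0.995) and PAGR1 (0.995). SLC51A was most like IGLON5 (0.996) and JUN (0.996), SLC51B most like MYRF (0.940) and SLCO2B1 (0.933), and CYP8B1 most like SIPA1 (0.889) and TSPAN33 (0.856).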

How the data were processed

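Human liver spheroid co-cultures gave 12 RNA libraries, grouped by GEO's labels. The authors filtered the reads with SOAPnuke, mapped them with HISAT2 2.0.4 and Bowtie2 2.2.5 to GRCh38.p13 and its transcripts, and calculated FPKM with RSEM from strand-specific mRNA libraries. The deposited FPKM values, rounded to 2 decimals by the authors, were used without further scaling. The table has 16725 lines, of which 20 name no gene and were left out.

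The 11713 genes whose FPKM averaged 0.5 or more entered limma 3.58.1 (R 4.3.3) on the log2(FPKM + 0.1) scale, in 1 model of the 4 groups with an intensity trend and Benjamini-Hochberg adjustment over all genes tested. The authors used DESeq2 on read counts, which were not used here. A fold change on the log2(FPKM + 0.1) scale understates the change of low genes. The exact permutation test of 3 against 3 libraries has 20 arrangements. The procedure was tested on simulated data.

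Depth was estimated from 97 short genes, in which 95.5% of 621 nonzero values lay within 15% of a fragment of a whole multiple, with GENCODE 44 transcript lengths. Genes were kept only if most of their nonzero values met this tolerance, so the share is high by selection and tests nothing. The estimate was 1.78e+07 fragments per library (95% limits 1.72e+07 to 1.83e+07). The limits reflect scatter between the 97 genes around a line in transcript length, and do not cover an error common to all lengths. For NR1H4 the estimate corresponds to 350 to 714 fragments per library and for SLC51B to 39.7 to 78.5.

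The members and lists were chosen with earlier results of these data known. All 10 genes are named whatever their values, with up to 4 DEGs of 144 h from each list, the 2 genes most like each gene tested, and, for their roles, KLB, RXRA, NR5A2, HNF4A, BAAT and ABCB11. An item that meets this rule is not reported here. Some marker genes are named as examples. As alternatives, a pseudocount of 1 or 0.01 and no filter or one at 1 or 5 FPKM were used, and other settings changed the scaling, the trend, the fold-change threshold and the libraries in the model, added a replicate block, or left out each library in turn. Tables and figures were made in Python 3.11.15 (pandas 2.3.3, numpy 2.4.6, matplotlib 3.10.9).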

Additional observations from a re-analysis of the deposited data

Results flagged for a closer look

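The change with TPN differed between 24 h and 144 h by a limma interaction test in 3 of the 7 genes tested, all with the lower value at 144 h, beside 16.3% of all genes in that direction. Subtracting the 24 h from the 144 h log2 fold change gave −0.40 for NR1H4, −0.43 for NR0B2 and −0.39 for FGFR4, with limma adjusted p values of 0.0150, 2.66e-05 and 1.17e-05. These differences passed the test in every alternative run. Hepatocyte markers moved as well, with 4 of 10 passing in the same direction and 1 in the other, and their part in these differences was not tested.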

How the results depend on the processing

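The 5 genes that fell with TPN at 144 h and the 3 interaction calls passed limma's adjusted p of 0.05 in every alternative run. Of the values of single genes under alternatives, 756 kept their direction and side of the threshold and 16 no longer passed. A further 6 newly passed in the same direction, and 10 changed sign. Of the values that changed sign, those of NR0B2 with time in untreated spheroids also newly passed. Their limma adjusted p was 0.00718 after median ratio scaling and 0.00732 after quantile normalization. Without the fold-change threshold the counts of genes called were 3 at 24 h, 5 at 144 h, 3 for the interaction, 5 with time in untreated and 6 with time in exposed spheroids, against 0, 2, 0, 1 and 3. At 144 h the count was 1 with a pseudocount of 1 and after quantile normalization, and 1 to 2 when a library was left out. With time in exposed spheroids it was 1 after median ratio scaling and after quantile normalization, and 2 to 3 when a library was left out. Signs changed for CYP8B1 at 144 h (−0.14 after quantile normalization, and −0.079 to 0.16 when a library was left out), CYP8B1 with time in exposed spheroids (0.11 after median ratio scaling, −0.17 to 0.066 when a library was left out) and NR0B2 with time in untreated spheroids (0.12 after median ratio scaling and 0.10 after quantile normalization). When a library was left out, the interaction ran from −0.19 to 0.033 for SLC51A and from −0.015 to 0.14 for SLC51B. The cause of these changes was not tested. Values of CYP8B1 under a mean FPKM of at least 1 or 5 could not be given, since the gene was then not tested.

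Pairing of libraries by replicate number was at most weak. Deviations from the group means correlated between −0.083 and 0.151 in libraries of the same number. In libraries of different numbers they correlated between −0.163 and 0.0773. Over the comparisons of TPN and of time, same-number values were 0.0163 to 0.0941 for replicate 1 and 0.0559 to 0.151 for replicate 3. For replicate 2 they were −0.083 to 0.0202. A weak pairing of replicates 1 and 3 is therefore not excluded. With the replicate number as a block, the counts of DEGs among the 7 genes were 0 at 24 h, 2 at 144 h, 0 for the interaction, 1 with time in untreated and 3 in exposed spheroids, as without it. Over all genes they were 111 at 24 h and 1108 at 144 h, against 107 and 1110. Depth limits CYP8B1 and SLC51B most among the genes tested, and FGF19, CYP7A1 and SLC10A1 were too low for limma.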
